A study of Mus musculus with 4 samples.

Results

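The genes described here are the translation factors of the mouse testis count table: every gene whose symbol begins with Eif and a digit from 1 to 6, or with Eef and 1 or 2. The rule takes 66 of the 22609 genes in the table. Polyadenylated RNA from whole testes of mice at postnatal day 3, on a mainly C57BL/6J background, was read as single-end 100-base reads. The offspring came from crosses of AmhCre mice with heterozygous TRαAMI mice. AmhCre places Cre recombinase under the Amh promoter, which is active in Sertoli cells, and TRαAMI is an allele of the thyroid hormone receptor gene Thra. In 2 libraries the receptor TR alpha 1 was labelled wild type and in 2 it was labelled dominant negative, called mutant below. The labels do not say whether the wild-type mice carried AmhCre or an unrecombined allele. Nothing in them says that the 2 libraries of a group came from separate animals, and a p-value here speaks of the spread among these samples, which may be technical. The comparison asks which testis transcripts differ when the receptor is disabled in Sertoli cells alone.

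Translation begins when the initiator tRNA, carried by eIF2, joins the small ribosomal subunit together with eIF1, eIF1A, eIF3 and eIF5. The cap complex of eIF4E, eIF4G and eIF4A brings the messenger to that subunit. eIF2B recharges eIF2 with GTP, and 4 kinases (Eif2ak1 to Eif2ak4) stop this recharging under stress by phosphorylating eIF2 alpha. Elongation then rests on eEF1A, which delivers aminoacyl-tRNA, its exchange factor eEF1B, eEF2, which moves the ribosome along, and eIF5A, which helps at difficult peptide bonds. Several factors exist as a general gene and a paralogue with restricted expression, such as Eef1a2 in muscle and nerve. The pattern also takes genes that are not factors themselves, namely the kinases, the eIF4E binding proteins and 4 Argonaute genes under their older symbols Eif2c1 to Eif2c4.

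The paralogues whose ratios are followed below are close in sequence, so a single read has to separate them. Shown are the first 100 coding bases, the length of 1 read, from the GENCODE M1 transcripts of 3 pairs, with the bases that differ within a pair in capitals. For Eif2s3y, whose entry gives no coding range, the longest open reading frame was used.
Eef1a2: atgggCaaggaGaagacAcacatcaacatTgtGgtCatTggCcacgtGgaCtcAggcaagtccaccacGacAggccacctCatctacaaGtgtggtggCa
Eef1a1: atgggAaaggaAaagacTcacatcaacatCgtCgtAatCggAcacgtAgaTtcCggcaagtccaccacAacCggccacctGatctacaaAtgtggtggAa
Eif5a2: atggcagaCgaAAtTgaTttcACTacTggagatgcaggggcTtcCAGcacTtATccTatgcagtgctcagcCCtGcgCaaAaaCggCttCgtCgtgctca
Eif5a: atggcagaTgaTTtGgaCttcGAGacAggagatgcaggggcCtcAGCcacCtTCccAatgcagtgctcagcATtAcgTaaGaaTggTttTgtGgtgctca
Eif2s3y: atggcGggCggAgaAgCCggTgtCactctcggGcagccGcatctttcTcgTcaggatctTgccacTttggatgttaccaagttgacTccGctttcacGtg
Eif2s3x: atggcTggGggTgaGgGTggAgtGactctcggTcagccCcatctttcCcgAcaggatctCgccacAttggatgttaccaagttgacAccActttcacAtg
Within these stretches Eef1a2 and Eef1a1 differ at 16 bases, Eif5a2 and Eif5a at 26, and Eif2s3y and Eif2s3x at 17. Over the whole aligned coding sequence the identity was 80.1%, 73.2% and 86.3%.

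The authors' table sets aside reads with several alignments, so a factor with copies elsewhere in the genome is undercounted. Of all 100-base windows of its longest transcript, a share of 90.2% for Eif2s3x occurred letter for letter outside the gene in the mm9 genome, on either strand. The share was 73.6% for Eif3j, 68% for Eif4a1, 52.8% for Eef1g, 37.1% for Eef1a1, 30.3% for Eif1 and 26.6% for Eif2s2. These 7 were the members above 25%. No window was repeated for 37 of the 66 members, including Eef1a2, Eif3g, Eif6 and Eif2s3y, and for Eif5a2 the share was 0.45%. Levels of the 7 are therefore too low by an unknown amount, and how the loss varies between libraries was not tested. Reads set aside for several alignments were 28.8% to 30.8% of alignments in the 4 libraries.

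Gene counts per library were between 10230512 and 15636832. The Sertoli cell markers were present in all libraries, with all 10 listed genes detected and a summed level of 4586 to 4972 CPM (the counts-per-million scale) in wild-type and 3818 to 3831 CPM in mutant libraries. The Sertoli sums were thus lower in both mutant libraries. By the edgeR test described below, 3 of the 10 genes were called lower and 7 were not called, beside 2.52% of all tested genes called lower. Transcripts of other cells also differed between the groups. All 13 skeletal muscle markers summed to 31.4 to 43.1 CPM in wild-type and 758.7 to 2888 CPM in mutant libraries, and the muscle regulator Myog was at 0 counts in both wild-type libraries. The 14 germ cell markers summed to 639.9 to 973.0 CPM against 318.4 to 364.4 CPM, the 6 leukocyte markers to 94.4 to 108.4 against 164.3 to 191.3 CPM, and the 5 fat cell markers to 73.8 to 81.9 against 26.6 to 27.2 CPM. The part of these differences in the results below was not tested, except where a value is given beside a gene.

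Together the 66 genes took 2.32% and 2.62% of gene counts in the wild-type and 2.21% and 2.25% in the mutant libraries, each pair in the order of the replicate numbers, as throughout. Per exonic length, as CPM per kilobase of exon (RPKM, mean of the 4 libraries), Eef1a1 stood highest at 2895, followed by Eef2 at 1245 and the exchange factor subunit Eef1b2 at 370.3. The level of Eef1a1 ranged from 2621 to 3403 RPKM over the libraries. Among eIF3 subunits Eif3h was highest at 352.1 RPKM and Eif3j lowest at 2.88 RPKM, the latter a gene with mostly repeated windows. Eif5a led the eIF5A pair with 229.7 RPKM and Eif5a2 had 11.2 RPKM. In the cap complex Eif4h, a helper of the helicase eIF4A, led with 218.6 RPKM. The highest of the scanning class was Eif1b at 102.2 RPKM, of the eIF4E binding proteins Eif4ebp1 at 112.7 RPKM, of eIF2 its alpha subunit Eif2s1 at 38.9 RPKM and of eIF2B its catalytic subunit Eif2b5 at 32.7 RPKM. These orders hold for the counts as they stand. Eif4a1, Eif1, Eif2s2 and Eif2s3x are undercounted through their repeated windows, so their true places in these classes are not known. The regulators stood lower: the eIF2 kinases lay between 6.12 and 11.7 RPKM, Eef2k at 11.9 RPKM and the Argonautes between 0.467 and 10.3 RPKM. At the bottom was Eif4e1b, the germ cell form of the cap-binding protein, at 0.079 RPKM.

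**Figure D1:**
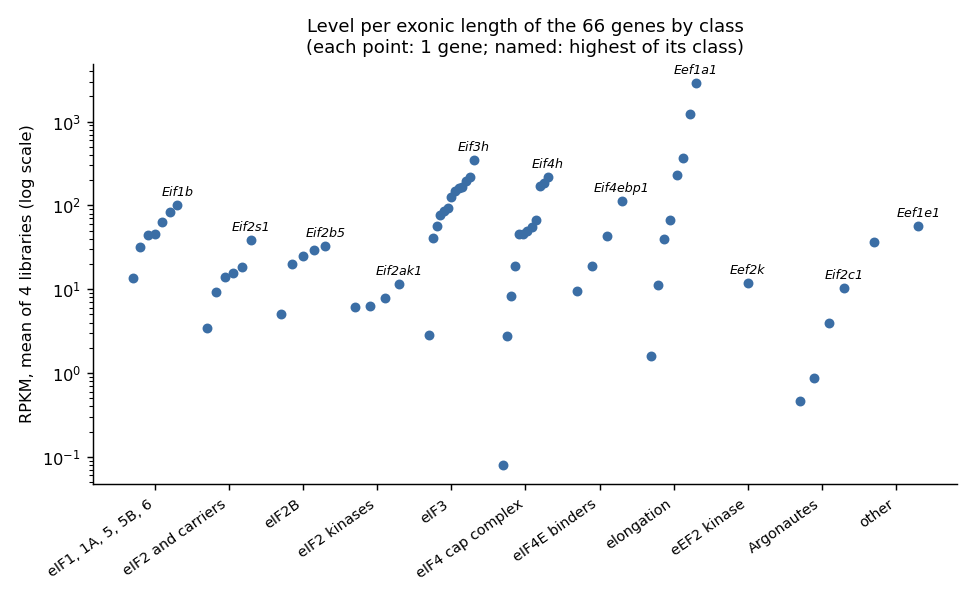
Level per exonic length (RPKM, log axis, mean of 4 libraries) of the 66 genes, 1 point per gene, by class. The elongation class holds the highest gene, Eef1a1 at 2895 RPKM, and the eIF2 kinases and the Argonautes stay at or below 11.7 RPKM.

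Of the 66 genes, 65 passed the filter on low counts, Eif4e1b being the exception. By edgeR's quasi-likelihood test with Benjamini-Hochberg adjustment over 14788 genes, Eef1a2 rose and Eif3g, Eif5a2, Eif6 and Eef1d fell at an adjusted p below 0.05, while 60 were not called. Over all tested genes 5.67% were called, 3.15% higher and 2.52% lower, against 5 of 65 members. The median log2 fold change (mutant minus wild type) was -0.09 over the members and -0.01 over all tested genes. Apart from Eef1a2, the largest difference was below 1.5-fold. Both mutant libraries lay above both wild-type libraries for 13 members and below for 27, where 28.3% and 29% of all tested genes did so. At an unadjusted p below 0.05 there were 6 members higher and 14 lower, beside 12.9% and 12.6% of all tested genes.

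**Figure D2:**
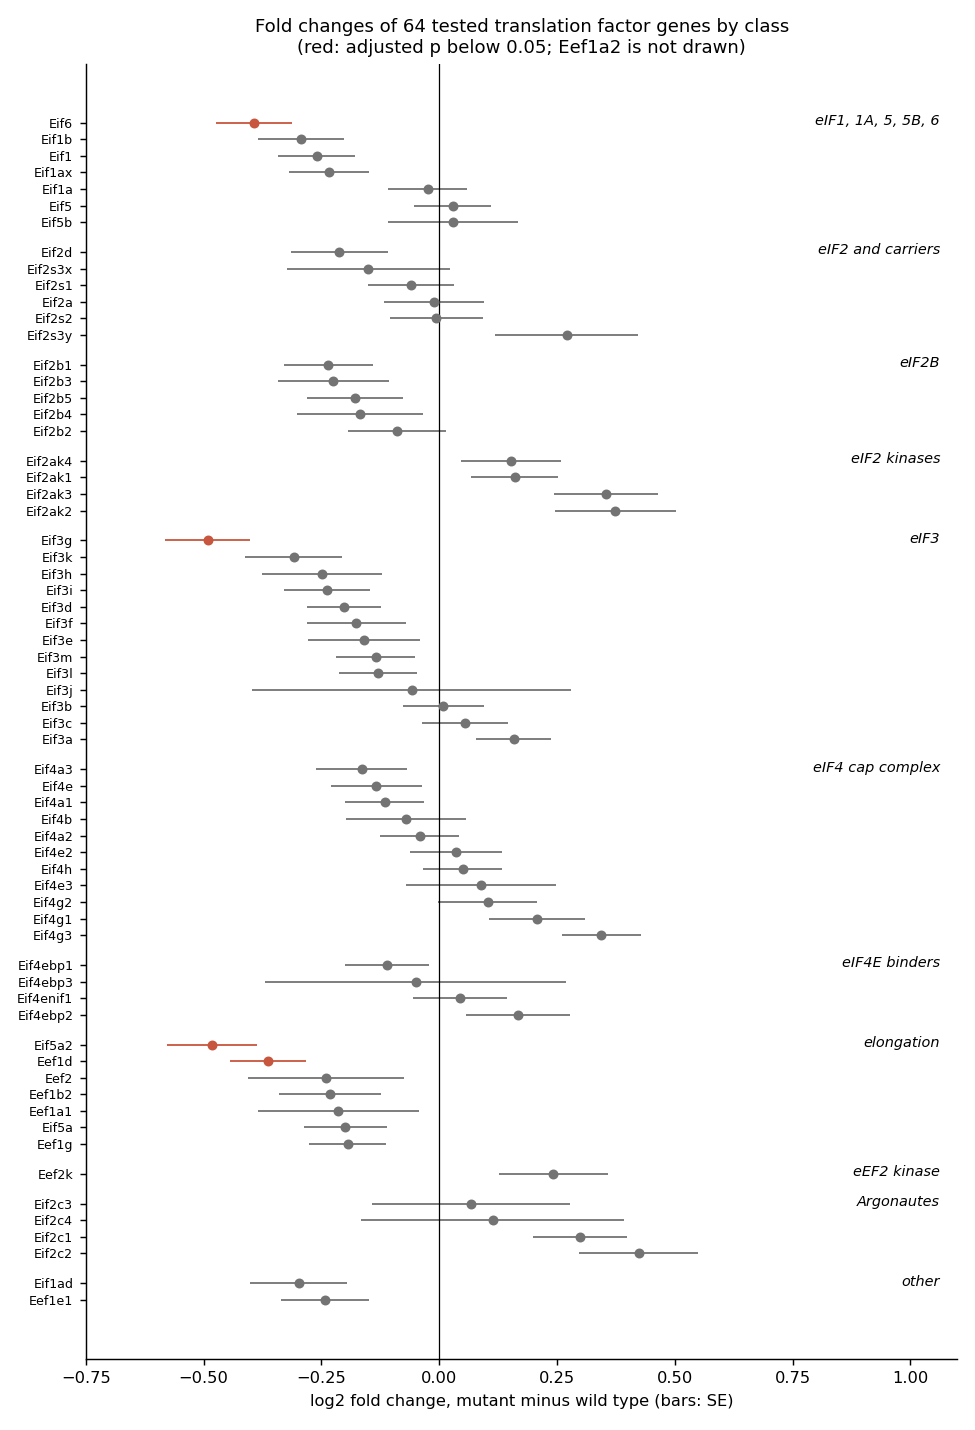
Log2 fold change (mutant minus wild type, x axis) of 64 tested members with its standard error, grouped by class, red where the adjusted p was below 0.05. All 5 eIF2B subunits and the 7 elongation factor genes drawn lie left of 0, and all 4 kinases of eIF2 right of it; Eef1a2, at 5.53, is left out.

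Eef1a2 is the eEF1A form of adult muscle, heart and nerve cells (chromosome 2, 180882358 to 180891719, minus strand, mm9, with 8 exon blocks). The wild-type libraries held 3 and 0 counts of it and the mutant libraries 98 and 67, or 0.225, 0, 8.92 and 4.28 CPM. Both mutant libraries were above both wild-type libraries, and mutant replicate 1 held more than mutant replicate 2. The ratio of summed counts was 48.5, with an exact 95% interval of 16.3 to 237.7 that covers counting error only, and the fitted log2 fold change was 5.53 ± 0.81 (SE; adjusted p = 0.0118). Skeletal actin (Acta1), a muscle marker, was at 875.3 CPM in mutant replicate 1 and 221.7 CPM in mutant replicate 2, the same order, and at 0.601 and 0.686 CPM in the wild-type libraries. Beside the general gene the paralogue stayed rare: for every 100 counts of Eef1a1 the wild-type libraries held 0.0032 and 0 of Eef1a2, the mutant libraries 0.137 and 0.0626. In whole tissue, more cells of a type and more RNA per cell cannot be told apart. Leaving out wild-type replicate 1 ended the call (adjusted p = 0.106) with a larger fitted log2 fold change of 9.28, which is no bound because the remaining wild-type library had 0 counts. The call also ended on leaving out wild-type replicate 2 (log2 fold change 4.75, adjusted p = 0.0859).

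Eif5a2, the form of eIF5A found mainly in testis and brain (chromosome 3, 28680233 to 28697768, plus strand), moved the other way. Wild-type libraries held it at 64.6 and 65.4 CPM and mutant libraries at 47.0 and 46.0 CPM, with no overlap. The 2 libraries of either group lay close together, but 2 libraries measure a spread poorly. Eif5a2 fell 1.397-fold (log2 fold change -0.48 ± 0.09, adjusted p = 0.0302). The general form Eif5a was at 593.2 and 574.2 CPM against 489.1 and 527.3 CPM and was not called (log2 fold change -0.20 ± 0.09, adjusted p = 0.203). Counts of Eif5a2 per 100 of Eif5a were 10.9 and 11.4 in wild-type and 9.62 and 8.73 in mutant libraries, which do not overlap. The summed germ cell markers were at 973.0 and 639.9 CPM in wild-type and 364.4 and 318.4 CPM in mutant libraries. Their drop from wild-type replicate 1 to replicate 2 was not seen for Eif5a2, and a link between them was not tested. Of the 14 germ cell markers 11 fell, beside 2.52% of all tested genes. Piwil4 went the other way, at 2.6 and 2.7 CPM in wild-type and 3.9 and 3.6 CPM in mutant libraries. The gene Gm17485 overlaps Eif5a2 on the opposite strand, and since the counting's strand setting is not given in the sources used here, their reads cannot be told apart. In each of the 4 fits that left out 1 library the call was lost, with log2 fold changes from -0.50 to -0.47.

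The promoters of these 2 restricted paralogues, which changed in opposite directions, are shown as the 250 bases before the RefSeq start, in build GRCm38.p6, with each match to CANNTG in capitals. This motif, the E-box, is bound by basic helix-loop-helix factors, among them the muscle regulators, and it reads alike on both strands.
Eef1a2 (chr2:181157016-181157265, minus strand): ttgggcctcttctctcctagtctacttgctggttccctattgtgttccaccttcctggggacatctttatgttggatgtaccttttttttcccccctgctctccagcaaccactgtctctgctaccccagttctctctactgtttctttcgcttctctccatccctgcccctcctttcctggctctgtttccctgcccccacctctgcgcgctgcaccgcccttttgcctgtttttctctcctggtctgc
Eif5a2 (chr3:28781027-28781276, plus strand): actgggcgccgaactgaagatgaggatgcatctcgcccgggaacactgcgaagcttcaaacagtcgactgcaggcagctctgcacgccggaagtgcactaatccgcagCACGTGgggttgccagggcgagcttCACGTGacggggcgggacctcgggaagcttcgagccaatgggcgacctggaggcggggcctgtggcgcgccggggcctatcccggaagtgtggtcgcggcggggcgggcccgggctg
The window of Eef1a2 held 0 matches and that of Eif5a2 held 2, both CACGTG. Of 32851 RefSeq promoter windows of this length, 66.2% held at least 1 match and 31.8% at least 2. The GC content was 54% for Eef1a2 and 68.4% for Eif5a2.

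In the elongation class as a whole, Eef1a2 rose, Eif5a2 and Eef1d fell and 5 of 8 genes were not called. Over all tested genes 3.15% were called higher and 2.52% lower. Eef1d, the delta subunit of the exchange factor eEF1B (chromosome 15, 75725226 to 75739986, minus strand), measured 265.5 and 262.2 CPM in wild-type and 199.5 and 210.9 CPM in mutant libraries. The groups did not overlap, and the fall was 1.29-fold (log2 fold change -0.36 ± 0.08, adjusted p = 0.0419). The other eEF1B subunits were lower by less: Eef1g was at -0.19 ± 0.08 on the log2 scale (adjusted p = 0.186) and Eef1b2 at -0.23 ± 0.11 (adjusted p = 0.223). The 2 most abundant factors varied between the wild-type libraries. Eef2 measured 3608 and 4747 CPM in the wild-type and 3694 and 3377 CPM in the mutant libraries, so the groups overlapped (log2 fold change -0.24 ± 0.17, adjusted p = 0.4). Eef1a1 was at 7025 and 8483 CPM in wild-type and 6534 and 6832 CPM in mutant libraries (log2 fold change -0.21 ± 0.17, adjusted p = 0.471). Wild-type replicate 2 exceeded wild-type replicate 1 by more than 0.25 on the log2 scale for 6 of the 64 tested members other than Eef1a2, namely Eef1a1, Eef2, Eif3e, Eif3f, Eif3h and Eif4b, and lay below it by as much for another 6. Eef2k, the kinase that inhibits eEF2, was at 77.3 and 79.1 CPM in wild-type and 102.7 and 82.6 CPM in mutant libraries. Its log2 fold change of 0.24 ± 0.12 was not called (adjusted p = 0.235) and fell to 0.08 without mutant replicate 1. The call of Eef1d was lost in all 4 fits that left out a library and with the replicate number as a block (adjusted p = 0.0534).

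**Figure D3:**
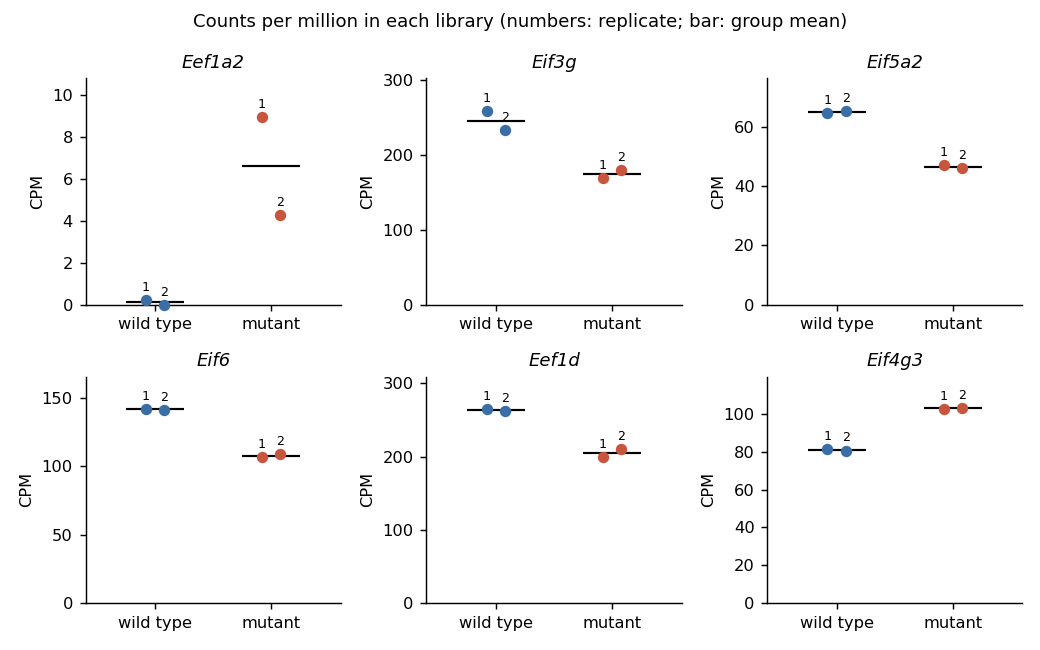
Level in CPM (y axis, from 0) of 6 members in each of the 4 libraries, numbered by replicate, with the group mean as a bar. Eef1a2 is nearly absent from the wild-type libraries, 4 genes are lower in both mutant libraries, and Eif4g3 sits at 80.8 to 81.6 CPM in wild type against 103.0 to 103.1 CPM in mutants.

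Among the 13 eIF3 subunits 1 fell and 12 were not called, beside 2.52% of all tested genes called lower. The median log2 fold change of the subunits was -0.16. Eif3g, an RNA-binding subunit that takes part in scanning (chromosome 9, 20698796 to 20703044, minus strand), measured 258.5 and 233.0 CPM in wild-type and 169.3 and 180.3 CPM in mutant libraries. Both mutant libraries lay below both wild-type libraries, a 1.41-fold fall (log2 fold change -0.49 ± 0.09, adjusted p = 0.0249). Differences for its partners were smaller and not called: Eif3k was at -0.31 ± 0.10 on the log2 scale (adjusted p = 0.112), Eif3i at -0.24 ± 0.09 (adjusted p = 0.154) and Eif3d, which can bind a cap itself, at -0.20 ± 0.08 (adjusted p = 0.156). The largest subunits showed no such sign: Eif3a was at 0.16 ± 0.08, Eif3b at 0.01 ± 0.09 and Eif3c at 0.05 ± 0.09. Eif3j, a loosely attached subunit, was at 22.7 and 10.9 CPM in wild-type and 20.7 and 12.8 CPM in mutant libraries, a spread within groups larger than any difference between them. Leaving out wild-type replicate 1 put Eif3g at -0.42 (adjusted p = 0.11), and the call was also lost without wild-type replicate 2 and without mutant replicate 1.

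Of the 7 genes for start site scanning and subunit joining 1 fell and 6 were not called, with a median of -0.23. Over all tested genes 2.52% were called lower. Eif6, which keeps the large ribosomal subunit from joining too early and is needed to make that subunit (chromosome 2, 155645568 to 155652661, minus strand), measured 142.0 and 140.9 CPM in wild-type and 106.8 and 108.5 CPM in mutant libraries. The groups were clearly apart, and the fall was 1.31-fold (log2 fold change -0.39 ± 0.08, adjusted p = 0.0333). It overlaps Gm16098 on the opposite strand. The start codon factor Eif1 and its paralogue Eif1b were at -0.26 ± 0.08 and -0.29 ± 0.09 and were not called (adjusted p = 0.0991 and 0.0963). Eif1ax, which helps eIF1 in scanning, was at -0.23 ± 0.09 (adjusted p = 0.136). The GTPase activator Eif5 and the joining factor Eif5b were at 0.03 ± 0.08 and 0.03 ± 0.14. Each of the 4 fits without a library lost the call of Eif6, with log2 fold changes from -0.41 to -0.38.

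No subunit of eIF2 or eIF2B and no eIF2 kinase was called by edgeR. At an unadjusted p below 0.05 there were 0 of 6 genes in the eIF2 class, 1 of 5 in eIF2B and 2 of 4 among the kinases, and DESeq2 and limma voom called none of them either. Within eIF2 itself Eif2s1 was at -0.06 ± 0.09 and the beta subunit Eif2s2 at -0.01 ± 0.10, both with overlapping groups. Eif2d, an alternative carrier of the initiator tRNA, was at -0.21 ± 0.10 (adjusted p = 0.243), and Eif2a, another such factor, at -0.01 ± 0.11. The 5 subunits of eIF2B had log2 fold changes from -0.24 to -0.09, with Eif2b1, of the regulatory subcomplex, at -0.24 ± 0.09 (adjusted p = 0.168). All 4 kinases were higher in both mutant libraries than in both wild-type libraries, where 28.3% of all tested genes did so. By edgeR 12.9% of all tested genes were higher and 12.6% lower at an unadjusted p below 0.05. The kinases had exonic lengths of 5113 to 7458 bases. All tested genes of 4000 to 6000 bases had a median log2 fold change of 0.05, and those from 6000 bases upward 0.11. The part of length in the kinase values was not tested. Eif2ak3 (PERK, the kinase of endoplasmic reticulum stress) was at 35.5 and 38.6 CPM in wild-type and 48.9 and 45.9 CPM in mutant libraries, a log2 fold change of 0.35 ± 0.11 (adjusted p = 0.0955). Eif2ak2 (PKR, activated by double-stranded RNA) was at 0.37 ± 0.13 (adjusted p = 0.12). The amino acid sensor Eif2ak4 (GCN2) and the heme sensor Eif2ak1 were at 0.15 ± 0.11 and 0.16 ± 0.09.

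The Y-linked Eif2s3y, which spermatogonia need to proliferate, and its X-linked copy Eif2s3x both encode the gamma subunit of eIF2. Eif2s3y measured 79.7 and 61.3 CPM in the wild-type libraries, and 74.98 and 95.1 CPM in the mutant libraries, with overlap. It was not called (log2 fold change 0.27 ± 0.15, adjusted p = 0.308). The summed germ cell markers were lower in both mutant libraries, and whether Eif2s3y follows the germ cells here was not tested. Eif2s3x lay between 12.5 and 14.8 CPM in all libraries, with the repeated windows described above, so the X copy cannot be ranked against the Y copy from these counts. For every 100 counts of Eif2s3x the wild-type libraries held 606.3 and 413.9 counts of Eif2s3y, and the mutant libraries 597.1 and 759.7. The groups overlapped in this ratio.

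In the cap complex edgeR called 0 of the 11 tested genes, 1 passed at an unadjusted p below 0.05, and DESeq2 and limma voom also called 0. The median log2 fold change was 0.04. Eif4g3, an eIF4G form that male meiosis needs, was at 81.6 and 80.8 CPM in wild-type and 103.0 and 103.1 CPM in mutant libraries. The difference was larger than the spread within groups, which 2 libraries measure poorly. Eif4g3 overlaps 1700095J12Rik on the opposite strand. Its log2 fold change of 0.34 ± 0.08 missed the threshold (adjusted p = 0.0538). It passed with upper-quartile normalisation (adjusted p = 0.0481) and with a minimum count of 50 (adjusted p = 0.0478). No other setting called it, among them DESeq2 (adjusted p = 0.0689) and limma voom (adjusted p = 0.0636). With the replicate number as a block the adjusted p was 0.0686, and without a low-count filter 0.0795. The general scaffold Eif4g1 was at 0.21 ± 0.10 and Eif4g2, a shortened form that works without the cap-binding protein, at 0.10 ± 0.11. The helicases Eif4a1 and Eif4a2 were at -0.12 ± 0.08 and -0.04 ± 0.08, and the cap-binding protein Eif4e was at -0.13 ± 0.10. Eif4e2 and Eif4e3, its more distant relatives, were at 0.04 ± 0.10 and 0.09 ± 0.16. The span of Eif4e3 overlaps Foxp1 on the same strand, and what this does to its counts was not tested. Eif4e1b had 4 and 2 counts in wild-type and 1 and 2 in mutant libraries, a ratio of 0.441 with an exact 95% interval of 0.0714 to 2.07, so no difference was detectable at this depth.

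The products of Eif4ebp1, Eif4ebp2 and Eif4ebp3 compete with eIF4G for the cap-binding protein, and mTOR signalling releases them. The class of eIF4E binding proteins also holds Eif4enif1, at a log2 fold change of 0.04 ± 0.10. Of these 4 genes edgeR, DESeq2 and limma voom called 0, and 0 had an unadjusted p below 0.05. Eif4ebp1, the form typical of muscle and fat, was at 109.2 and 120.4 CPM in wild-type and 108.6 and 103.9 CPM in mutant libraries (log2 fold change -0.11 ± 0.09). Eif4ebp2, the more general form, was at 0.17 ± 0.11, and Eif4ebp3 at -0.05 ± 0.32 with 4.80 to 9.61 CPM. The span of Eif4ebp3 overlaps Ankhd1 on the same strand, with an effect on its counts that was not tested. Eif4ebp1's count per 100 of Eif4ebp2 was 155.0 and 160.3 in wild-type and 121.7 and 139.6 in mutant libraries, without overlap.

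Among the 12 paralogue ratios that were compared, 6 separated the groups: Eef1a2/Eef1a1, Eif4e3/Eif4e and Eif4a2/Eif4a1 were higher, and Eif5a2/Eif5a, Eif4ebp1/Eif4ebp2 and Eif4e1b/Eif4e lower, in both mutant libraries. Among the levels of all tested genes, 28.3% were higher and 29% lower in both mutant libraries, so 6 of 12 is no result about these pairs. The ratio Eif4e1b/Eif4e rests on 9 counts of Eif4e1b in all. With 2 libraries against 2, an exact two-sided permutation test cannot go below p = 0.333, which each of the 6 reached, so no ratio could pass a threshold. On the log2 scale, with 0.5 added to each count, the differences of group means (mutant minus wild type) were 5.98 for Eef1a2/Eef1a1, -0.28 for Eif5a2/Eif5a, -0.27 for Eif4ebp1/Eif4ebp2, 0.22 for Eif4e3/Eif4e and 0.07 for Eif4a2/Eif4a1. Eif1b/Eif1 stayed within its spread at -0.03, with 65.5 to 76.9 counts of Eif1b per 100 of Eif1.

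**Figure D4:**
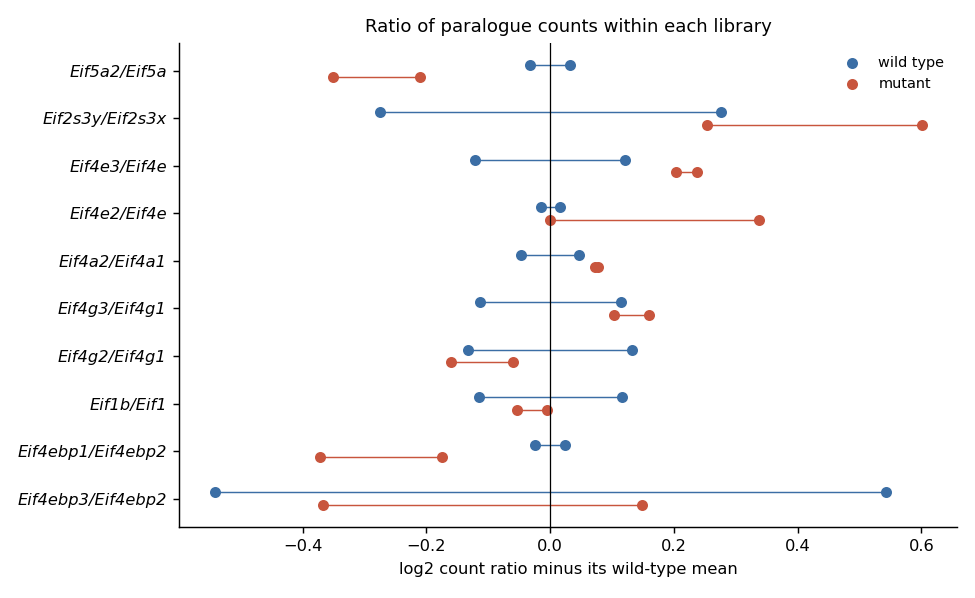
Log2 ratio of counts of the first over the second gene of 10 paralogue pairs in each library, minus its wild-type mean; each line joins the 2 libraries of a group. Eif5a2/Eif5a and Eif4ebp1/Eif4ebp2 lie lower in both mutant libraries, while Eif2s3y/Eif2s3x overlaps.

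Argonautes load small RNAs and silence their targets, and 4 of them carry Eif2c symbols in this table. All 4 had positive log2 fold changes with a median of 0.21, and edgeR, DESeq2 and limma voom called 0. By edgeR 2 were higher at an unadjusted p below 0.05, beside 12.9% of all tested genes. Eif2c2, the form that cleaves targets, was at 26.5 and 27.1 CPM in wild-type and 38.2 and 33.8 CPM in mutant libraries (log2 fold change 0.42 ± 0.13, adjusted p = 0.0842). Eif2c1 was at 0.30 ± 0.10 (adjusted p = 0.112). Eif2c3 and Eif2c4 stayed at 4.71 to 8.19 CPM with overlapping groups. The remaining matching genes, Eif1ad and the synthetase scaffold gene Eef1e1, were at -0.30 ± 0.10 and -0.24 ± 0.09 and were not called (adjusted p = 0.121 and 0.155).

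The differences were ordered by exonic length, which merges the exons of all transcripts of a gene. It can exceed the longest transcript, as for Eif3i with 3702 exonic bases and a longest transcript of 1123 bases. An order by transcript length was not tested. Of the 12 members with an exonic length below 2000 bases 11 had a negative fold change (median -0.18), and so did 20 of 24 from 2000 to 4000 bases (median -0.17) and 6 of 13 from 4000 to 6000 bases (median 0.03). From 6000 bases upward 4 of 16 were negative (median 0.08). All tested genes showed the same order, with medians of -0.17, -0.04, 0.05 and 0.11 in the same length ranges. Across the 64 tested members other than Eef1a2, fold change and log2 length correlated with Spearman's rho of 0.568 (Pearson's r = 0.545), and across the 14598 tested genes with a length rho was 0.294 (r = 0.13). These are descriptions across genes that share the same 4 libraries. Between the wild-type replicates the same rho over members was -0.153, and between the mutant replicates -0.076. After removal of each library's trend with length, a step chosen after seeing the data, rho over these members was 0.135. Eef1a2, Eif5a2 (log2 fold change -0.53, adjusted p = 0.0324) and Eef1d (-0.43, adjusted p = 0.0368) were still called then. Eif3g (-0.29, adjusted p = 0.122) and Eif6 (-0.35, adjusted p = 0.0566) were not. The result for Eef1d rests on its 5897 exonic bases, where its longest transcript has 2842 bases. Its value with the shorter length was not tested. The members above 6000 bases include Eif4g3, which was at 0.21 after that step (adjusted p = 0.19), and all 4 Argonautes.

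**Figure D5:**
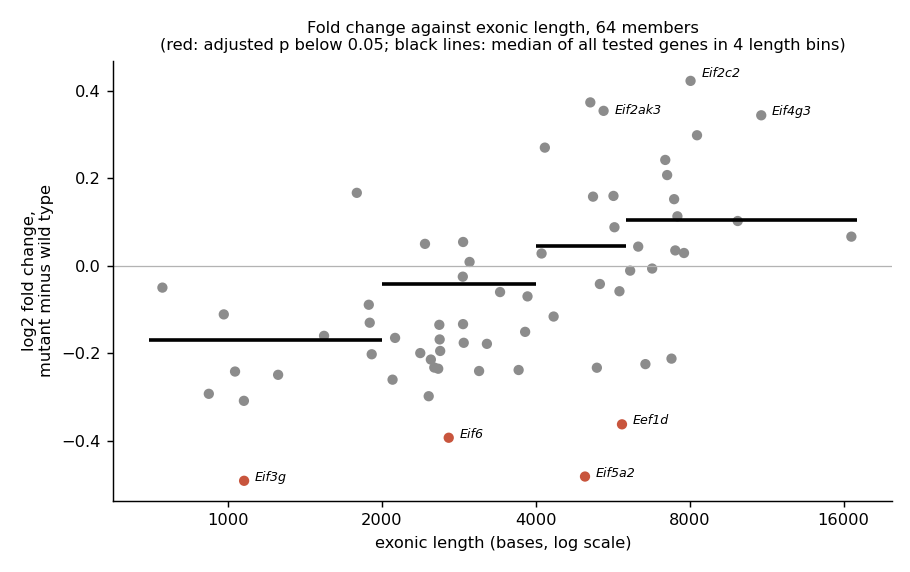
Log2 fold change (mutant minus wild type) of 64 tested members against exonic length in bases (log axis), red where the adjusted p was below 0.05. Black lines give the median of all tested genes in 4 length ranges, from -0.17 below 2000 bases to 0.11 from 6000 bases; Eef1a2 is left out.

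Around the factors, 52 related genes of translation were read in the same fit: 1 rose, 1 fell and 50 were not called. This is 3.85% called, beside 5.67% of all tested genes. The median log2 fold change was -0.01 over the related genes and also -0.01 over all tested genes. Asns, the asparagine synthetase gene that the stress factor ATF4 activates, was at 63.9 and 60.1 CPM in wild-type and 89.0 and 88.2 CPM in mutant libraries. It rose 1.43-fold (log2 fold change 0.51 ± 0.09, adjusted p = 0.0226), but not so once wild-type replicate 1 (adjusted p = 0.0872) or wild-type replicate 2 (adjusted p = 0.0894) was left out. The other 7 genes of the integrated stress response were not called. Denr, which helps ribosomes to reinitiate, fell 1.29-fold from 137.5 and 130.7 to 103.3 and 105.3 CPM (log2 fold change -0.36 ± 0.08, adjusted p = 0.0453). That call was lost in each of the 4 fits without a library, with the replicate block, by limma voom, with upper-quartile normalisation (adjusted p = 0.0513), without a low-count filter (adjusted p = 0.0698) and after removal of the length trend (adjusted p = 0.0701). Of 7 genes that modify eIF5A and eEF2, 5 were lower in both mutant libraries, beside 29% of all tested genes, and edgeR called 0. By the same test 3 were lower at an unadjusted p below 0.05, beside 12.6% of all tested genes. Dohh and Dhps, the enzymes that make the hypusine residue of eIF5A, were at -0.37 ± 0.10 (adjusted p = 0.0628) and -0.35 ± 0.13 (adjusted p = 0.138). The 13 genes of mTOR and MAP kinase control had a median of 0.07, and edgeR called 0, with 0 at an unadjusted p below 0.05. For termination and recycling (4 genes), poly(A)-binding proteins (6), mitochondrial factors (9) and selenocysteine elongation (2) edgeR called 0, with 0, 1, 2 and 0 at an unadjusted p below 0.05.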

How the data were processed

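RNA of 4 whole-testis libraries was measured by sequencing. The submitters' processing notes list mm9 as the build and name TopHat 1.4.0, CASAVA 1.8.1, DESeq2 and HTSeq without saying what each did. The authors deposited 1 table, treated here as estimated counts since some lines after the genes are percentages. All gene values in it are whole raw counts, so rounding left them as they were. Reads with several alignments, ambiguous reads and reads in no feature have separate lines and entered no library size or test. For the annotation, the counting mode and the strand, the sources used here give nothing.

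Counts were tested with edgeR 4.0.16 (R 4.3.3; quasi-likelihood, legacy and robust options off, TMM, genotype only) after its expression filter (minimum count 10, total 15), two-sided, with Benjamini-Hochberg adjustment over 14788 genes. The fold change's standard error (SE) is its size over the square root of F. CPM use TMM-adjusted library sizes, and RPKM divide them by the exonic length in GENCODE M1 (NCBIM37, the mm9 assembly), which holds all 66 members. Other settings were DESeq2 1.42.0, limma voom 3.58.1, other scalings and filters, a replicate block, each library left out, and removal of the length trend (lowess offset). The procedures were tested on simulated data. Members and lists were chosen with earlier results of these data known. Named were members with an unadjusted p below 0.05, both genes of each pair, the highest member per length of each class and called related genes; others were named after their values were seen.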

Additional observations from a re-analysis of the deposited data

How the results depend on the processing

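Of the 42 named genes none changed direction while called, under any alternative. Leaving out a library changed most: members called ranged from 0 to 1 higher (1 with all libraries) and from 0 to 1 lower (4 with all libraries), and called genes over the whole table from 34 to 818 higher and from 40 to 477 lower, beside 466 and 373. On the log2 scale the members' median difference moved from -0.089 to -0.121 when wild-type replicate 1 was dropped, and to -0.050 when wild-type replicate 2 was dropped. The medians of all tested genes in these fits were 0.007 and -0.003, in the same order. Upper-quartile normalisation and a minimum count of 50 each gave 2 members higher, Eef1a2 and Eif4g3. Without a low-count filter 2 members were lower, Eif3g and Eif5a2, and 282 and 219 genes were called higher and lower; limma voom called 309 genes higher. With the length trend removed 2 members were lower, and 305 and 224 genes were called higher and lower. DESeq2, limma voom, median-ratio size factors and library size alone called the 5 members of the full fit. Without 1 library, the log2 difference in paralogue ratio ran from 4.64 to 7.33 for Eef1a2/Eef1a1 and from -0.35 to -0.21 for Eif5a2/Eif5a. It changed sign for Eif4ebp3/Eif4ebp2 (-0.65 to 0.43), Eif4g2/Eif4g1 (-0.24 to 0.02), Eif1b/Eif1 (-0.14 to 0.09) and Eif4e2/Eif4e (-0.00016 to 0.34). In groups of 2 such a shift is always smaller than the spread between replicates, so these ranges say nothing about stability. With the replicate number as a block, 3 members were lower, without Eef1d, and 1 was higher. Same-numbered libraries did not deviate together (correlation -0.0257 over 14788 genes), so the block pairs only numbers. Lone libraries in the leave-one-out fits are assumed to vary like the other group. At 10230512 to 15636832 gene counts, depth limits Eef1a2 and Eif4e1b most.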
